A study of Rattus norvegicus with 10 samples.

Results

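The comparison described here is the course of the injured, vehicle-treated rat heart from 4 h to 24 h: 2 tissue libraries at 24 h were set against 2 at 4 h over all genes of the count table. These are 4 of the 8 tissue libraries and of the 10 samples of the series. All hearts had their left coronary artery ligated, and RNA came from the area at risk (AAR), the myocardium that the ligated artery supplies. The titles count the hours from the ligation and the series text from the ischaemia and reperfusion injury (M/IR), so the zero point of the time is not settled. The other 4 tissue libraries, 2 a time, came from rats given the small molecule BT2 (a code name), whose dose in these tissue libraries the labels do not state. They entered the fit for its estimate of the spread and are compared at the end. A single-nucleus library of vehicle AAR at 24 h (1 sample) served as another readout. Strain, age, sex and whether libraries of one group are from separate rats are not given in the labels, so p-values measure only the spread between these libraries, which may be technical. The groups hold no uninjured or sham heart, so every difference below is between 2 times after injury and says nothing about the level before it.

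When blood flow to heart muscle is cut and restored, stressed cells first switch on immediate early genes, heat shock proteins, cytokines and chemokines, and neutrophils enter the tissue. Monocytes then follow, become macrophages that clear dead cells, and fibroblasts begin to divide and lay down matrix that will replace lost muscle. Cardiomyocytes, which burn mainly fatty acids in dense mitochondria, can be lost or can lower their contractile and metabolic transcripts while turning on a fetal programme.

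The 4 vehicle libraries held 10397310 and 17696344 counts at 4 h and 24480984 and 20813410 at 24 h. Levels are given as CPM, a gene's counts relative to the total of its library, scaled with TMM factors, which were 0.884 and 0.807 at 4 h and 1.18 and 1.16 at 24 h. The 10 most counted genes took 10.5% and 12.1% of counts at 4 h and 5.37% and 5.6% at 24 h. The 8 cardiomyocyte markers, all present, summed to 65000 and 78800 CPM at 4 h and to 20500 and 20500 CPM at 24 h, and all 8 were lower. The 7 monocyte or macrophage markers summed to 277 and 332 CPM at 4 h and to 2030 and 2570 CPM at 24 h, with 6 higher. The 6 neutrophil markers summed to 541 and 1720 CPM at 4 h and to 294 and 193 CPM at 24 h, with 5 lower. Fibroblast markers, of which Col1a2 was at 0 in all libraries, summed to between 4810 and 5540 CPM at 4 h and between 3520 and 3940 CPM at 24 h. That sum leans on Gsn, at 2820 and 2700 CPM at 4 h and at 711 and 647 CPM at 24 h. Of the 7 fibroblast markers tested 3 were lower, Gsn, Dcn and Lum, and 2 were higher, Col1a1 and Col3a1. Endothelial markers summed to between 1650 and 1980 CPM at 4 h and between 1280 and 1410 CPM at 24 h. Lymphocyte markers summed to between 23.4 and 23.5 CPM and between 16.3 and 21 CPM. Pericyte markers summed to between 640 and 763 CPM at 4 h and between 669 and 700 CPM at 24 h, and smooth muscle markers to between 225 and 281 CPM and between 231 and 266 CPM. In tissue RNA, fewer cells of a type and less RNA per cell cannot be told apart, and this holds for each gene group below.

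Calls were spread evenly over both directions. Of 15216 genes tested with edgeR's quasi-likelihood test, 7162 (47.1%) passed an adjusted p of 0.05, 3545 (23.3%) higher and 3617 (23.8%) lower at 24 h. At least 2-fold changes were found for 1649 higher and 1676 lower genes, and at least 16-fold changes for 43 higher and 29 lower genes. The median log2 fold change over all genes tested was 0.01. Both libraries of one time lay above both of the other in 11573 genes (76.1%). Without library 2 of 24 h, leaving a lone library that is assumed to vary like the other groups, 4629 genes passed. Upper quartile scaling took the median of all genes to 0.12 on the log2 scale and the split of calls to 4307 higher and 3018 lower.

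The largest rise was that of Spp1, which encodes osteopontin, a secreted protein of activated macrophages. Spp1 was at 26.3 and 19.98 CPM at 4 h and at 2839 and 4761 CPM at 24 h, a 165-fold difference (log2 fold change 7.37 ± 0.49 SE, adjusted p = 9.2e-05). Mmp12, the macrophage elastase, stood at 0.653 and 0.911 CPM and then at 62.6 and 79.4 CPM (log2 fold change 6.45 ± 0.59 SE). Gpnmb, a glycoprotein of phagocytic macrophages, went from 30.03 and 39.96 CPM to 1172 and 1739 CPM (log2 fold change 5.37 ± 0.28 SE). No library of 24 h overlapped one of 4 h for these 3 genes, which was a condition for being named among the largest rises. Among the 15 largest rises were also Lilrb3, a myeloid inhibitory receptor, and Cx3cr1, the fractalkine receptor of monocytes and macrophages, at log2 fold changes of 5.08 and 4.69. Trip13, Mybl2, Kntc1, E2f1 and Ncapg, which act in cell division, stood between 3.67 and 4.11. The rest were Erbb3, a neuregulin receptor (4.02), Fzd2, a Wnt receptor (3.99), Serpinb8 (3.96), Nrcam, an adhesion molecule (3.82), and Apobec1, an RNA-editing cytidine deaminase (3.72).

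The largest fall was that of Csf2, which encodes the growth factor GM-CSF. Csf2 was at 9.90 and 10.4 CPM at 4 h and at 0.0694 and 0.0829 CPM at 24 h. Its counts were 240 in the 4 h libraries and 4 in the 24 h libraries, a ratio of 135 at equal effective depth (95% counting interval 52.2 to 501, for counting error only). Hspa1a, the inducible heat shock protein of the HSP70 class, went from 42.3 and 68.1 CPM to 0.833 and 1.12 CPM (log2 fold change -5.83 ± 0.53 SE, adjusted p = 2.1e-04), although its near-identical copy makes the count uncertain. Next came Stfa2l2, a stefin, at -4.58 and 3 genes known from neutrophils, Mmp8 at -4.14, Retnlg at -4.03 and Il1r2 at -3.70. Pgf, the placental growth factor, was at 195 and 120 CPM and then at 11.4 and 7.87 CPM. Fam189a2, a membrane protein, was at 476 and 1123 CPM and then at 49.0 and 48.3 CPM. Fgl2, a prothrombinase of activated cells, was at 1544 and 1445 CPM and then at 134 and 72.0 CPM. Otud1, a deubiquitinase, was at 680 and 905 CPM and then at 56.1 and 57.3 CPM. The last 5 of these 15 falls were Klhl34, Fosb, Art1, Cxcl1 and Egr1, between -3.88 and -3.81. In each of the 15 falls both libraries of 4 h lay above both of 24 h, as the rule for naming them required.

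**Figure D1:**
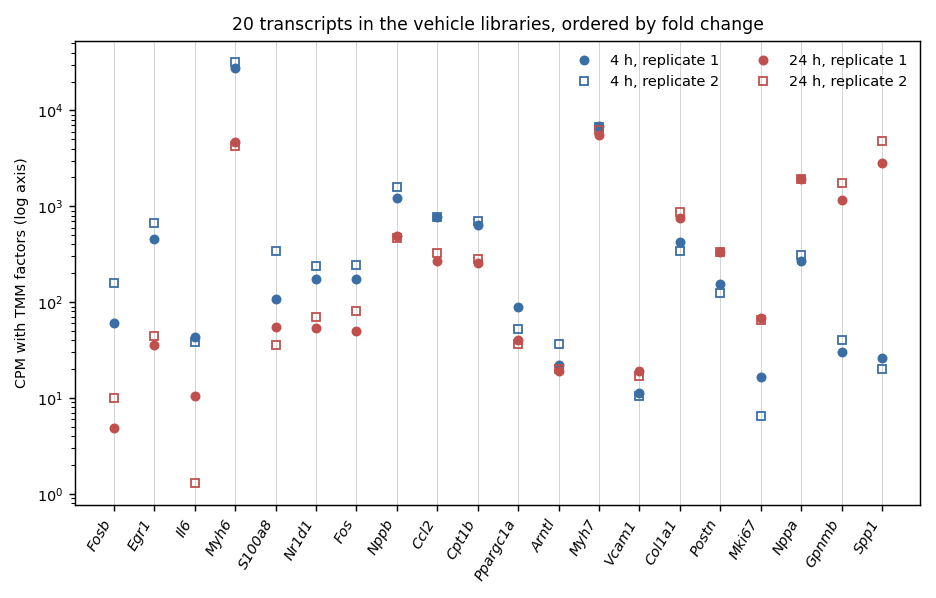
Level of 20 transcripts reported in any case, in CPM with TMM factors on a log axis, in each of the 4 vehicle tissue libraries (blue 4 h, red 24 h, filled replicate 1, open replicate 2), ordered by fold change. Fosb and Egr1 lie lowest at 24 h relative to 4 h, Myh7, Arntl and Ccl2 were not called, and Spp1 and Gpnmb lie farthest above their 4 h level.

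Immediate early genes, mostly transcription factors switched on within minutes of a stimulus, were higher at 4 h than at 24 h. Of 23 tested, 19 fell and none rose, at a median log2 fold change of -1.53. Egr1, a zinc finger factor, was at 458 and 676 CPM at 4 h and at 36.0 and 44.8 CPM at 24 h (-3.81 ± 0.42 SE, adjusted p = 4.9e-04). Its relative Egr3 was at 67.9 and 110 CPM and then at 8.23 and 7.08 CPM (-3.54 ± 0.25 SE). Fosb, an AP-1 subunit, was at 60.05 and 157 CPM and then at 4.93 and 9.98 CPM (-3.88 ± 0.85 SE), and its call was lost without the filter on low counts, without library 2 of 4 h and without library 1 of 24 h. The orphan nuclear receptor Nr4a3 fell from 48.9 and 44.1 CPM to 6.63 and 5.76 CPM. Fos, another AP-1 subunit, was at 175 and 246 CPM and then at 50.1 and 81.8 CPM (-1.68 ± 0.29 SE). Jund and Klf4 were not called at -0.57 and -0.50, and Nr4a1 and Dusp1 missed the threshold at -2.01 and -1.12.

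Feedback inhibitors of the ERK kinase pathway, which immediate early signalling induces, showed the same direction at a median of -1.12. Of 19 tested 12 fell (63.2%, against 23.8% of all genes) and 2 rose (10.5%, against 23.3%). Errfi1, an inhibitor of the EGF receptor, was at 469 and 447 CPM and then at 75.4 and 52.7 CPM (-2.84). Spry2, an inhibitor of receptor tyrosine kinase signalling, was at 219 and 237 CPM and then at 37.8 and 39.6 CPM (-2.56), and Spry4 fell by 1.73 on the log2 scale. The EGF receptor ligand Hbegf was at 148 and 247 CPM and then at 34.2 and 33.6 CPM. The ETS factors Etv4 (1.46) and Etv5 (0.70) were the 2 that rose, and the call of Etv5 was lost in 3 of 4 fits that each left out a library. Without library 2 of 24 h the list counted 8 falls and 1 rise.

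Inflammatory cytokines had a median of -1.72. Of 15 tested 9 fell (60%, against 23.8% of all genes) and 3 rose (20%, under the 23.3% of all genes). Il6, the main inducer of acute phase proteins, was at 43.1 and 38.6 CPM at 4 h and at 10.4 and 1.28 CPM at 24 h (-2.78 ± 0.78 SE, adjusted p = 0.025). The 24 h libraries thus differed among themselves, and the call was lost without either 4 h library and without the filter on low counts. Lif, an IL-6 family cytokine, was at 22.2 and 20.3 CPM and then at 3.75 and 2.49 CPM (-2.76 ± 0.24 SE, adjusted p = 1.4e-04). Il1b, the fever cytokine, was at 52.8 and 150 CPM and then at 24.4 and 18.9 CPM. Csf1, the macrophage growth factor, was at 500 and 593 CPM and then at 155 and 181 CPM, opposite in direction to its receptor Csf1r below. Those that rose were Il33 (0.54) and Il18 (1.16), both alarm cytokines of the IL-1 family, and Il11 (1.36), at 0.979 and 1.05 CPM and then at 3.47 and 1.74 CPM. Calls of Il11 and Il18 were lost in 3 and 2 of the 4 fits that left out a library. That of Il11 was also lost with the replicate block, the DESeq2 test and the vehicle libraries alone, and the list then counted 1 rise with the block or the vehicle libraries alone. The antagonist Il1rn was not called at 0.01, and Tnf had 0 counts in all 4 libraries and was not tested. The list counted 5 falls and no rise without library 2 of 4 h, and 6 falls and no rise without library 1 of 24 h.

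CXC chemokines, which guide neutrophils or, for Cxcl9 to Cxcl11, T cells, fell in 6 of 11 and rose in none, at a median of -1.64. Cxcl1 was at 296 and 260 CPM at 4 h and at 24.9 and 13.4 CPM at 24 h (-3.85 ± 0.48 SE, adjusted p = 9.6e-04). Cxcl2 was at 75.2 and 125 CPM and then at 29.6 and 8.04 CPM. Cxcl6 was at 24.3 and 36.4 CPM and then at 18.6 and 0.746 CPM, and was not called. Library 1 of 24 h thus held more of these neutrophil attractants than library 2, though both lay under the 4 h libraries. Without library 1 of 4 h, library 2 of 4 h or library 2 of 24 h 3 falls were called, and without the last the median was -0.71. Of 17 CC chemokines, which attract monocytes and lymphocytes, 4 fell (23.5%, against 23.8% of all genes) and 2 rose (11.8%, against 23.3%), at a median of -0.47. The falls numbered 7 with the replicate block and 6 with the DESeq2 test or the vehicle libraries alone, and no rise was called without the filter on low counts or without either 4 h library. Ccl2, the main monocyte attractant, was at 768 and 774 CPM at 4 h and at 270 and 323 CPM at 24 h, but with a log2 fold change of -1.38 ± 0.64 SE it was not called (adjusted p = 0.12). Ccl7 lay at 168 and 169 CPM and then at 172 and 213 CPM, also not called. Ccl20, which attracts cells bearing Ccr6, rose from 0.870 and 1.40 CPM to 16.4 and 4.14 CPM (3.13), and Ccl12 rose by 1.66. Both calls were lost without the filter on low counts and without either 4 h library, and that of Ccl12 also without library 2 of 24 h.

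Genes of the cytokine, CXC and CC chemokine lists include textbook targets of AP-1 and NF-kB. Promoter sequences are therefore shown of the called gene of each list that fell most, among those with an entry. They are the 250 bases before the start site in RefSeq (build GRCr8), 5′ to 3′ on the gene's strand: Csf2 at chr10:38889674-38889923 (minus strand), Cxcl1 at chr14:17479322-17479571 (minus strand) and Ccl17 at chr19:10209896-10210145 (minus strand). Capitals mark the strings TGANTCA (an AP-1 site) or GGGANTT (part of an NF-kB site), on either strand.
Csf2: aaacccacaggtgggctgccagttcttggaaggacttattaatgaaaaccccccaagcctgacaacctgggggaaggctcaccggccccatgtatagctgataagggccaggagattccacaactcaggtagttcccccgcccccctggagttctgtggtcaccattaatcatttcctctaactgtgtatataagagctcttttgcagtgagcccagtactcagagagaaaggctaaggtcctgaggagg
Cxcl1: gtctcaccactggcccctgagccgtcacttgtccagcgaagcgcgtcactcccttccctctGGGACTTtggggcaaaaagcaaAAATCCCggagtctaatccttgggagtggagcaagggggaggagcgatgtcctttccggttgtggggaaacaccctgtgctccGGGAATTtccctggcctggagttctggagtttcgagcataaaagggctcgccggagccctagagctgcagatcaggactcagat
Ccl17: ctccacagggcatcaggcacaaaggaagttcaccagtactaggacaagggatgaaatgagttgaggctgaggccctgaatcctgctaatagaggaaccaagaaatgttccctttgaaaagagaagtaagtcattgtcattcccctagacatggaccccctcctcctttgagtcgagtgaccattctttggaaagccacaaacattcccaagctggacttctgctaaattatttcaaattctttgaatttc
GGGANTT occurred 3 times in the Cxcl1 sequence, starting 189, 167 and 84 bases before the start site, and neither string occurred in the other sequences. Over windows of 300 bases, which add 50 bases after the start, GGGANTT stood in 5 of 10 CXC chemokine windows (50%: Cxcl1, Cxcl2, Cxcl6, Cxcl9 and Cxcl16), 3 of 11 cytokine windows (27.3%) and 2 of 17 immediate early gene windows (11.8%), against 17.3% of all 27456 windows. TGANTCA stood in 3 of 10 CXC chemokine windows, 3 of 11 cytokine windows and 0 of 17 immediate early gene windows, against 7.33% of all windows. A match is a description of letters, not a bound site.

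Genes that NF-kB induces to limit itself fell in 9 of 15, with no rise and a median of -1.09. There was 1 rise without the filter on low counts or without library 2 of 4 h. Birc3, an inhibitor of cell death, was at 39.4 and 42.4 CPM and then at 14.6 and 13.1 CPM (-1.56). Zc3h12a, an RNase that degrades cytokine messages, fell by 1.77 on the log2 scale, and Tnfaip3, the A20 deubiquitinase, was at 118 and 93.6 CPM and then at 23.1 and 24.5 CPM. The subunits Nfkb2 and Relb were not called at -0.05 and -0.32.

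Adhesion molecules moved in both directions, at a median of 0.36. Of 12 tested 4 rose (33.3%, against 23.3% of all genes) and 4 fell (33.3%, against 23.8%). Icam1, on endothelium and leukocytes, was at 62.4 and 74.1 CPM and then at 33.4 and 31.5 CPM (-1.08), and Pecam1, of endothelial junctions, fell by 0.86. Selp, the P-selectin gene, fell by 1.34. Vcam1, which binds the integrin of Itga4, was at 11.2 and 10.6 CPM and then at 19.3 and 17.1 CPM (0.74 ± 0.14 SE, adjusted p = 3.5e-03). Itga4 itself rose from 4.13 and 4.56 CPM to 17.7 and 16.7 CPM (1.98), and the leukocyte integrins Itgb2 and Itgam rose by 1.33 and 1.25. The counts were 2 and 2 without the filter on low counts, 2 fell without library 2 of either time, and the median was 0.158 and 0.193 without library 1 of 4 h and of 24 h.

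Neutrophil genes fell together. Of 15 markers tested, 10 fell and none rose, at a median of -2.41. S100a8, a calprotectin subunit, was at 107 and 338 CPM at 4 h and at 54.7 and 36.0 CPM at 24 h (-2.30 ± 0.55 SE, adjusted p = 0.014). Cxcr2, the receptor for Cxcl1, was at 44.4 and 158 CPM and then at 22.9 and 14.9 CPM. Mmp8, the collagenase of neutrophil granules, was at 38.6 and 134 CPM and then at 5.66 and 4.14 CPM. Library 2 of 4 h held the most of each of these, yet library 1 also lay above both 24 h libraries. The granulocyte growth factor receptor Csf3r was not called at -0.29, nor Lcn2, also made outside neutrophils, at 0.36. The number of falls was 6 without the filter on low counts, without library 2 of 4 h or without library 1 of 24 h, and 3 without library 2 of 24 h, and the median was -1.254 without library 2 of 4 h. The call of S100a8 was lost without the filter on low counts and without either 24 h library. That of Il1r2 was lost without the filter and without library 2 of 24 h.

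Macrophage genes rose over the same interval. Of 19 monocyte and macrophage markers 13 rose and none fell, at a median of 1.14 (1.749 without library 2 of 4 h). Without library 1 of 4 h 1 fell. Csf1r, the receptor for Csf1, was at 46.2 and 54.7 CPM at 4 h and at 240 and 269 CPM at 24 h (2.33 ± 0.14 SE, adjusted p = 6.6e-05). Cd68, a lysosomal membrane protein of phagocytes, was at 19.04 and 21.1 CPM and then at 109 and 127 CPM. The general leukocyte gene Ptprc, at 59.4 and 128 CPM and then at 133 and 142 CPM, was not called at 0.55, and neither was Lyz2, which neutrophils share, at 0.83. Markers of resident macrophages rose in 6 of 9 and fell in 1, at a median of 1.72, and the fall was not called without library 1 of 4 h or either 24 h library. Folr2 was at 5.44 and 4.49 CPM and then at 42.9 and 49.8 CPM (3.24), F13a1 rose by 2.21, Mrc1, the mannose receptor, by 1.81 and Cd163, the haemoglobin scavenger receptor, by 1.53. Lyve1 and Timd4 were not called at 0.51 and 0.32. Vsig4 had 0 counts at 4 h and 13 at 24 h, at least 1.92-fold higher against a floor of 3 counts over the 4 h group.

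Genes of lipid-laden, phagocytic macrophages had a median of 1.39. Of 20 tested 13 rose (65%, against 23.3% of all genes) and 4 fell (20%, under the 23.8% of all genes). Beside Spp1, Mmp12 and Gpnmb, Arg1, the arginase of wound macrophages, went from 3.15 and 6.66 CPM to 43.6 and 42.0 CPM (3.07). Msr1, a scavenger receptor, was at 68.2 and 56.2 CPM and then at 305 and 363 CPM (2.43). Trem2, a lipid-sensing receptor, and the cholesterol exporters Abca1 and Abcg1 rose by 1.94, 1.63 and 1.48. The 4 that fell were Lpl (-1.84), Fabp4 (-1.33), Cd36 (-0.91) and Axl (-0.37). Lpl, Fabp4 and Cd36 take up or carry fatty acids and are also made by cardiomyocytes or endothelium. Lysosomal genes rose in 14 of 22 and fell in none, at a median of 0.66. Ctsz, a cathepsin, was at 36.9 and 44.4 CPM and then at 179 and 208 CPM (2.25), and Grn, progranulin, at 137 and 135 CPM and then at 321 and 351 CPM. The membrane proteins Lamp1 and Lamp2 were not called, at -0.01 and -0.15.

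Of 18 lymphocyte genes 4 fell (22.2%) and 3 rose (16.7%), shares near or under those of all genes. Their median of -0.09 was 0.02 with upper quartile factors, 0.066 with the vehicle libraries alone, 0.11 without library 1 of 24 h and -0.425 without library 2 of 24 h. The cytotoxic granule genes Prf1, Gzmb and Nkg7 and the natural killer receptor Ncr1 fell, Prf1 from 8.92 and 6.87 CPM to 2.98 and 2.28 CPM and Nkg7 from 7.51 and 7.57 CPM to 2.50 and 3.36 CPM. Cd8a was at 2.29 and 3.22 CPM and then at 18.5 and 39.3 CPM (3.36 ± 0.40 SE), and Cd8b at 0.544 and 0.631 CPM and then at 6.91 and 6.09 CPM (3.44 ± 0.42 SE). In rats, CD8 is carried by some macrophages and natural killer cells as well as by T cells. The T cell receptor complex genes Cd3e and Cd3g, the T cell kinase Lck and Cd4 were not called, at -0.23, 0.90, 0.30 and 0.28. Antigen presentation was mixed, with 3 of 14 higher (21.4%) and 2 lower (14.3%), shares under those of all genes, at a median of 0.08 (0.189 with upper quartile factors). B2m, the light chain of MHC class I, fell by 0.98 and Cd74, the MHC class II chaperone, by 0.79, while the class I chaperone Tapbp and the immunoproteasome subunit Psmb8 rose by 0.75 and 0.87.

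Interferon response genes fell in 9 of 28 and rose in none, at a median of -0.45, a share of falls of 32.1% against 23.8% over all genes. Without library 1 of 4 h, 3 rose and the median was -0.225. Ifit3, an antiviral effector, was at 95.3 and 112 CPM and then at 25.1 and 21.9 CPM (-2.14), and Gbp1, an interferon-induced GTPase, at 194 and 190 CPM and then at 66.7 and 72.2 CPM (-1.47). Stat2, Irf1 and Rsad2 were not called at 0.00, 0.21 and 0.28. In the complement list 6 of 19 fell (31.6%, against 23.8% of all genes) and 4 rose (21.1%, against 23.3%). The median was -0.15, -0.455 without library 1 of 24 h and -0.029 without library 2 of 24 h. Cfb, of the alternative pathway, was at 19.4 and 17.4 CPM and then at 5.03 and 5.06 CPM (-1.86), and Cd55, which protects cells from complement, fell by 1.10. C3ar1, the C3a receptor, rose from 6.20 and 7.78 CPM to 71.1 and 75.8 CPM (3.38). The C1q genes C1qa, C1qb and C1qc, which macrophages make, were not called and lay between -0.07 and 0.10.

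Of 13 acute phase genes 5 fell (38.5%, against 23.8% of all genes) and none rose, at a median of -0.58. Hp, haptoglobin, was at 27.1 and 49.5 CPM and then at 1.18 and 6.80 CPM (-3.30 ± 0.72 SE), and Il1r1, the IL-1 receptor, fell by 0.98. The number of falls was 3 without the filter on low counts, without library 1 of 4 h or without library 2 of 24 h, and 1 without library 2 of 4 h. The median was -1.143 without library 1 of 24 h and -0.345 without library 2, and the call of Hp was lost without the filter and without library 2 of 4 h. Coagulation and fibrinolysis genes had a median of -0.61 (-0.296 without library 2 of 4 h). Of 16 tested 7 fell (43.8%, against 23.8% of all genes) and 2 rose (12.5%, against 23.3%). F3, tissue factor, which starts clotting, was at 61.7 and 66.5 CPM and then at 22.8 and 16.03 CPM (-1.72), and Tfpi2, a protease inhibitor, fell by 1.94. Plau, urokinase, rose from 11.2 and 10.02 CPM to 39.9 and 45.2 CPM (2.01), as did the clotting factor F13a1.

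Genes of dividing cells rose nearly without exception. Of 32 cell cycle genes 31 rose, at a median of 2.72, and all 26 DNA replication genes rose, at a median of 2.06, with the same counts in each of 4 fits that left out a library. Mki67, which coats mitotic chromosomes, was at 16.6 and 6.45 CPM at 4 h and at 67.7 and 65.8 CPM at 24 h (2.57 ± 0.40 SE, adjusted p = 1.8e-03). E2f1, the factor that opens S phase, was at 0.979 and 1.26 CPM and then at 14.8 and 16.7 CPM (3.78 ± 0.22 SE), and Mybl2, which drives G2 and M genes, at 2.61 and 0.631 CPM and then at 24.3 and 20.8 CPM (3.92 ± 0.55 SE). At 4 h library 1 held more mitotic transcripts than library 2, as for Cdk1 at 7.18 and 1.68 CPM, and both lay below 32.2 and 29.7 CPM at 24 h. In the replication machinery Mcm5, a helicase subunit, was at 6.64 and 6.66 CPM and then at 52.0 and 55.8 CPM (3.02), Gins1, of the same helicase, at 0.762 and 0.771 CPM and then at 7.46 and 7.33 CPM (3.26), and Pola1, DNA polymerase alpha, rose by 2.13. Pcna showed the smallest rise of that list, 0.64. Ccnd1, the cyclin of G1 entry, was not called at 0.20, with 153 and 99.5 CPM and then 134 and 156 CPM.

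Promoters of the cell cycle and replication genes that rose most, among those with an entry, are shown because the lists rose as blocks and each has a textbook promoter element. The 250 bases before the start of Mybl2 (chr3:172124555-172124804, plus strand) and Gins1 (chr3:160184670-160184919, plus strand), both from RefSeq in GRCr8, carry in capitals any match of TTCCCGC or TTGGCGC (forms of the E2F site) or TTTGAA (the core of the CHR element), on either strand.
Mybl2: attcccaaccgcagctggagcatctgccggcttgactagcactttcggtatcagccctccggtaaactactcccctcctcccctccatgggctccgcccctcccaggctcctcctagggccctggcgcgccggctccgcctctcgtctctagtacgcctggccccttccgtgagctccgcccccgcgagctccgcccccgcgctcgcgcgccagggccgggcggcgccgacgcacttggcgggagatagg
Gins1: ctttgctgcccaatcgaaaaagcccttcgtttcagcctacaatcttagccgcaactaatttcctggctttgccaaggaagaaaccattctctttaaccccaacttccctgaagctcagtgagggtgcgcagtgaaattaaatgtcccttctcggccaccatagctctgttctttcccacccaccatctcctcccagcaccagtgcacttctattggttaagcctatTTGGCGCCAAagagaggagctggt
TTGGCGC occurred in the Gins1 sequence on both strands in matches that overlap, starting 24 and 21 bases before the start site. None of the 3 exact strings occurred in the Mybl2 sequence. Other forms of the E2F site were not searched for, so this does not mean that the Mybl2 sequence lacks one. In windows of 300 bases, TTGGCGC stood in 8 of 22 replication windows (36.4%) and 2 of 23 cell cycle windows (8.7%), against 2.43% of all windows, and TTCCCGC in 8 of 22 (36.4%) and 1 of 23 (4.35%), against 4.47%. TTTGAA stood in 14 of 23 cell cycle windows (60.9%), those of Mki67, Top2a, Cdk1 and Plk1 among them, and 1 of 22 replication windows (4.55%), against 18.1% of all windows.

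**Figure D2:**
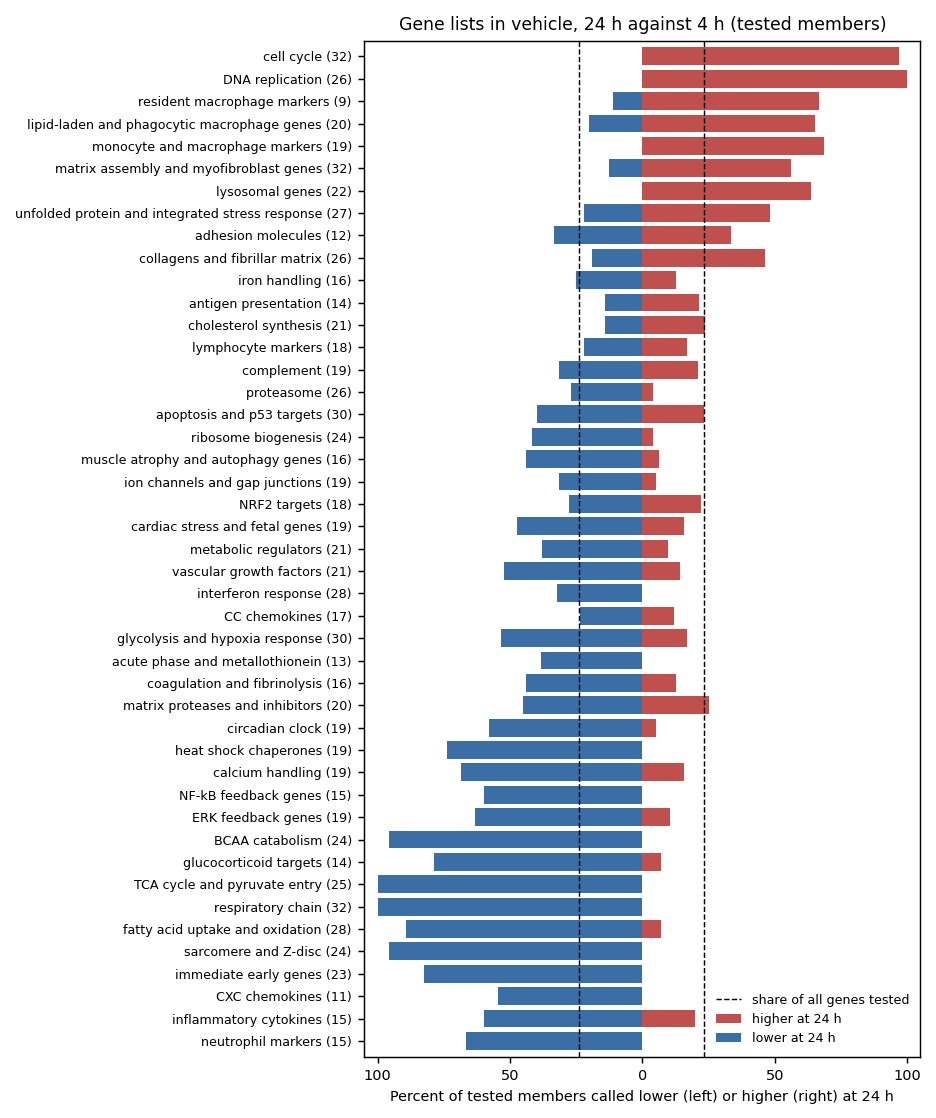
Percent of tested members called higher (red, right) or lower (blue, left) at 24 h in 45 gene lists, ordered by median log2 fold change, with the number tested in brackets. Dashed lines mark the shares of all genes, 23.3% higher and 23.8% lower. Cell cycle and DNA replication stand at the top and neutrophil markers at the bottom.

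Collagen and matrix genes were called in both directions, with falls at a share under that of all genes. Of 26 collagens and fibrillar matrix genes 12 rose (46.2%, against 23.3% of all genes) and 5 fell (19.2%, against 23.8%), at a median of 0.29. The falls numbered 2 with upper quartile factors, without library 1 of 4 h or without library 2 of 24 h, and 3 without library 1 of 24 h, where the median was 0.189. Col1a1, the main fibrillar collagen chain, was at 426 and 342 CPM and then at 749 and 881 CPM (1.09 ± 0.14 SE, adjusted p = 5.5e-04), and Fn1, fibronectin, at 258 and 408 CPM and then at 1402 and 2037 CPM (2.37). Fbln2 and Bgn, which bind the matrix of growing scars, rose by 1.5 and 1.48. Those that fell were Dcn (-1.08), Col14a1 (-0.81), Fbln1, Lum and Nid1, of which Dcn and Lum are small proteoglycans of resting fibroblasts. Col4a1 and Col4a2, of basement membrane, were not called at -0.18 and -0.23.

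Of 32 genes for matrix assembly and myofibroblasts 18 rose (56.2%, against 23.3% of all genes) and 4 fell (12.5%, under the 23.8% of all genes), at a median of 0.94. Postn, periostin, was at 153 and 124 CPM and then at 332 and 336 CPM (1.27 ± 0.25 SE). Loxl1, which cross-links elastin, rose by 1.83 and Serpinh1, the collagen chaperone, by 1.66, from 276 and 231 CPM to 808 and 797 CPM. The 4 that fell were Cyr61 (-3.05), Thbs1 (-2.45), Ctgf (-1.79) and Itga5 (-1.27), the first 3 being secreted matricellular proteins of the early wound. Cyr61 was at 1765 and 1883 CPM and then at 206 and 235 CPM, and Thbs1 at 3386 and 3088 CPM and then at 664 and 521 CPM. The smooth muscle actin Acta2, a myofibroblast marker, was not called at 0.46. Of 20 proteases and inhibitors of the matrix 9 fell (45%, against 23.8% of all genes) and 5 rose (25%, near the 23.3% of all genes), at a median of -0.62. The median was -0.045 without library 2 of 4 h and -0.964 without library 1, and 3 rose without library 1 of 24 h. Timp3, an inhibitor bound to the matrix, was at 947 and 743 CPM and then at 265 and 219 CPM (-1.81), and Mmp2, the gelatinase of fibroblasts, fell by 1.11. Mmp14, a membrane-bound protease, rose from 38.5 and 25.8 CPM to 95.6 and 94.8 CPM (1.58).

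Cardiomyocyte transcripts fell, and the sum of the cardiomyocyte markers given above fell with them. Of 24 sarcomere and Z-disc genes 23 fell and none rose, at a median of -1.36. Myh6, the fast myosin heavy chain of the adult rat ventricle, was at 27520 and 32190 CPM at 4 h and at 4700 and 4226 CPM at 24 h (-2.74 ± 0.18 SE, adjusted p = 8.5e-05). Myh7, the slow myosin of the fetal programme, was at 6895 and 6803 CPM and then at 5510 and 6235 CPM, not called at -0.22 ± 0.28 SE (adjusted p = 0.54). Tcap, which anchors titin, fell by 1.98 and Ttn, titin, by 0.86, while the filament gene Des was not called at 0.27. Nppa, atrial natriuretic peptide, rose from 266 and 307 CPM to 1911 and 1940 CPM (2.75 ± 0.32 SE, adjusted p = 5.0e-04). Nppb, the B-type peptide, fell from 1233 and 1606 CPM to 489 and 472 CPM (-1.56 ± 0.33 SE), a call lost without the filter on low counts. Markers of atrial cardiomyocytes summed to 56.8 and 71.6 CPM at 4 h and 63.4 and 59 CPM at 24 h. Myl7, Myl4, Sln and Tbx5 were not called, Nr2f2 was higher and Bmp10 was near 0. Cardiac stress and fetal genes had a median of -0.38. Of 19 tested 9 fell (47.4%, against 23.8% of all genes) and 3 rose (15.8%, against 23.3%). The median was -0.228 without library 2 of 4 h, -0.571 without library 1 of 4 h and -0.865 without library 2 of 24 h. Among them, Xirp1 was at 4829 and 6205 CPM and then at 663 and 724 CPM (-2.99), and Ankrd1 and Flnc fell by 1.14 and 2.22. Rcan1, a calcineurin target, fell from 1328 and 2123 CPM to 357 and 388 CPM. The skeletal actin gene Acta1, another fetal gene, was not called at 0.47.

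Calcium handling genes had a median of -1.07. Of 19 tested 13 fell (68.4%, against 23.8% of all genes) and 3 rose (15.8%, against 23.3%). Atp2a2, the calcium pump of the sarcoplasmic reticulum, was at 11410 and 11340 CPM and then at 3728 and 4078 CPM (-1.54). Hrc, a calcium-binding protein of that store, was at 1068 and 1177 CPM and then at 225 and 214 CPM (-2.35), and Trdn, triadin, fell by 1.5. Cacna2d1, a channel subunit also found outside muscle, rose by 0.53. Ion channel genes fell in 6 of 19 (31.6%, against 23.8% of all genes) and rose in 1, at a median of -0.36. The potassium channels Kcnd3 and Kcnq1 fell by 2.05 and 1.15, and Hcn2 was at 112 and 139 CPM and then at 25.7 and 20.4 CPM. Kcnj5, of the acetylcholine-gated potassium channel, rose from 27.2 and 19.4 CPM to 43.8 and 45.8 CPM (0.96). The gap junction gene Gja1 was not called at 0.05.

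Mitochondrial energy genes fell as whole pathways. All 32 respiratory chain genes tested fell, with log2 fold changes between -1.80 and -1.05 and a median of -1.21. Cycs, cytochrome c, was at 255 and 272 CPM and then at 93.1 and 94.9 CPM (-1.49), and Ndufab1, of complex I, fell by 1.26. All 25 genes of the TCA cycle and pyruvate entry fell, at a median of -1.15. The largest fall there was that of Pdk4, a kinase that shuts off pyruvate oxidation, from 918 and 871 CPM to 84.5 and 62.4 CPM (-3.61), and its relative Pdk1 and the opposing phosphatase Pdp1 fell by 1.42 and 1.21. Of 28 genes of fatty acid uptake and oxidation 25 fell and 2 rose, at a median of -1.28. Cpt1b, the muscle form of the enzyme that admits fatty acids to mitochondria, was at 639 and 709 CPM and then at 255 and 280 CPM (-1.33 ± 0.12 SE, adjusted p = 1.6e-04). Fabp3, the heart fatty acid binding protein, was at 3339 and 3339 CPM and then at 638 and 603 CPM (-2.43), and Acsl1, which activates fatty acids, fell by 1.83. The 2 that rose were Cpt1a, the liver form of the same enzyme, from 46.0 and 36.2 CPM to 64.2 and 81.9 CPM (0.83), and Ehhadh, a peroxisomal enzyme (1.02), whose call was lost in each of 4 fits that left out a library.

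Enzymes that break down branched-chain amino acids (BCAA) fell in 23 of 24, at a median of -1.15. Mccc2, of leucine breakdown, was at 204 and 219 CPM and then at 82.4 and 78.8 CPM (-1.39), and Mcee, of the shared propionate route, fell by 1.56. Bckdk, the kinase that switches off the branched-chain dehydrogenase, fell by 0.73, and Ppm1k, the phosphatase that switches it on, was not called at -0.67. The regulators of these pathways moved less as a list, at a median of -0.38. Of 21 tested 8 were lower (38.1%, against 23.8% of all genes) and 2 higher (9.52%, against 23.3%). With upper quartile factors 5 were lower. The median ran from -0.525 without library 2 of 4 h to -0.302 without library 1 of 4 h. Ppard and Rxrg, nuclear receptors, fell by 1.68 and 1.33. Ppargc1a, the coactivator of mitochondrial genes, was at 88.8 and 52.3 CPM and then at 39.9 and 36.2 CPM (-0.88 ± 0.31 SE, adjusted p = 0.047). Its call was lost with upper quartile factors, without the filter on low counts and in 3 of 4 fits that left out a library. Ppara, Esrra and Tfam were not called at -0.63, -0.26 and -0.24, and Rxra and Gata4 rose by 0.91 and 0.79. Glycolysis and hypoxia genes had a median of -0.57. Of 30 tested 16 fell (53.3%, against 23.8% of all genes) and 5 rose (16.7%, under the 23.3% of all genes). There were 3 rises without the filter on low counts and 2 without either 24 h library, and the median was -0.309 without library 2 of 4 h. Muscle forms fell, as Pgam2 (-2.32) and Pfkm (-1.98), while other forms of the same enzymes rose, as Pgam1 (0.63), Pfkp (0.94) and Pfkl (0.90). The insulin-regulated glucose transporter Slc2a4 was at 351 and 323 CPM and then at 82.6 and 65.0 CPM, and Hif1a was not called at -0.04.

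Protein stress genes split by compartment. Cytosolic heat shock chaperones fell in 14 of 19 and rose in none, at a median of -0.87, with 1 rise under upper quartile factors. Dnajb4, a co-chaperone, was at 427 and 502 CPM and then at 166 and 139 CPM (-1.60), and Bag3, which clears damaged sarcomere proteins, fell by 1.45. A further list joins the unfolded protein response and the integrated stress response, and its median was 0.52. Of its 27 genes 13 rose (48.1%, against 23.3% of all genes) and 6 fell (22.2%, near the 23.8% of all genes). Those that rose were, apart from the serine synthesis enzyme Phgdh, chaperones and folding enzymes of the endoplasmic reticulum. Pdia4, a disulphide isomerase, was at 36.9 and 32.7 CPM and then at 176 and 195 CPM (2.42 ± 0.14 SE, adjusted p = 6.6e-05), Creld2 at 15.8 and 19.3 CPM and then at 78.2 and 84.6 CPM (2.21), and Hspa5, the BiP chaperone, at 705 and 803 CPM and then at 1208 and 1219 CPM (0.69). The 6 that fell were Trib3, Chac1, Atf4, Sesn2, Ddit3 and Atf5, factors or targets of the integrated stress response. Atf4, its main transcription factor, was at 498 and 666 CPM and then at 217 and 226 CPM (-1.39 ± 0.16 SE), and Trib3 at 3.26 and 4.98 CPM and then at 0.902 and 0.953 CPM (-2.16).

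**Figure D3:**
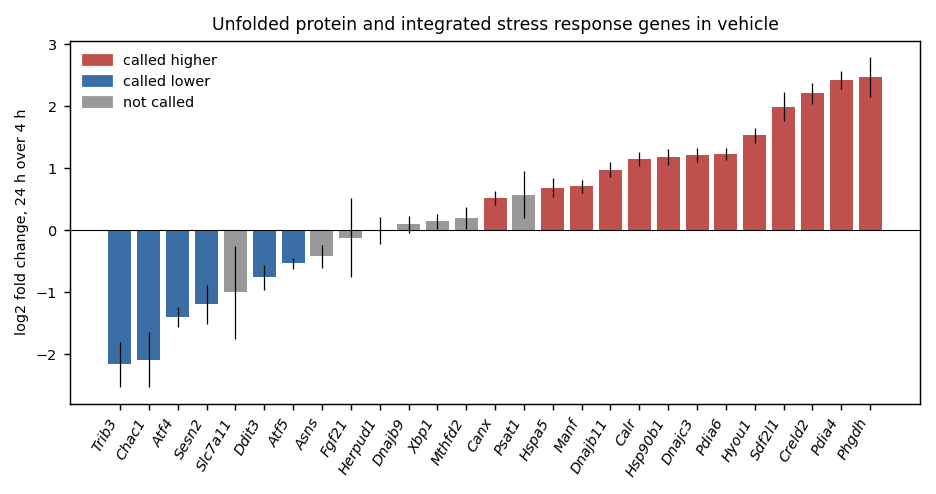
Log2 fold change of 24 h over 4 h, with its standard error, of 27 tested stress response genes, unfolded protein or integrated, in vehicle (red called higher, blue called lower, grey not called). Trib3, Chac1 and Atf4 stand at the left with the largest falls, and Pdia4 and Phgdh at the right with the largest rises.

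Targets of NRF2, the oxidant-sensing factor, fell in 5 (27.8%) and rose in 4 (22.2%) of 18, shares near those of all genes, at a median of -0.37 (0.056 without library 2 of 4 h, -0.217 without library 1 of 24 h). The rises numbered 7 with upper quartile factors, and the falls 8 without library 1 of 4 h. Srxn1, sulfiredoxin, was at 107 and 141 CPM and then at 29.6 and 37.2 CPM (-1.90), Me1 fell by 1.25, and the pentose phosphate enzyme Tkt rose by 1.20. Hmox1, haem oxygenase, was not called at -0.47. Among 30 apoptosis and p53 genes 12 fell (40%, against 23.8% of all genes) and 7 rose (23.3%, the same share as over all genes). Their median was -0.19 (-0.073 with upper quartile factors, -0.116 and -0.081 without library 1 and 2 of 4 h). Gadd45b and Mcl1, both early stress genes, fell by 1.33 and 1.24, and Gadd45a was at 406 and 784 CPM and then at 93.5 and 93.8 CPM. The pore-forming effectors Gsdmd and Bak1 rose by 1.26 and 0.75. The initiator caspase gene Casp8 was not called at -0.29. Iron genes were split, with Tfrc, the transferrin receptor, from 209 and 219 CPM to 74.8 and 66.4 CPM (-1.60), the reductase Steap4 lower by 1.54 on the log2 scale and Steap3 higher by 1.13, and Ftl1, ferritin light chain, from 78.9 and 100 CPM to 194 and 235 CPM (1.25). Of 16 iron genes 2 rose (12.5%) and 4 fell (25%, near the 23.8% of all genes), at a median of 0.08 that ran from -0.065 without library 2 of 4 h to 0.197 with upper quartile factors.

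Of 16 autophagy and atrophy genes 7 fell (43.8%, against 23.8% of all genes) and 1 rose (6.25%, against 23.3%). Their median was -0.31 (-0.2 with upper quartile factors). There were 2 rises with those factors, with the DESeq2 test or without library 1 of 4 h, and 3 with the vehicle libraries alone. Ulk1 and Gabarapl1, of autophagosome formation, fell by 0.98 and 1.57, Ctsl, a lysosomal protease, rose by 0.65, and the muscle ubiquitin ligases Trim63 and Fbxo32 were not called at -0.30 and 1.41. Of 24 ribosome biogenesis genes 10 fell (41.7%, against 23.8% of all genes) and 1 rose (4.17%, against 23.3%). Their median was -0.28 (-0.163 and 2 rises with upper quartile factors). Rrp12 and Wdr43 fell by 1.22 and 1.04, and Npm1 rose by 0.51, a call lost in 3 of 4 fits that left out a library. The list counted 6 to 7 calls without library 2 of 4 h or either 24 h library. Proteasome subunits moved little, with log2 fold changes between -0.43 and 0.37. Of 26 tested, 7 fell, Psmb7 and Psmc5 by 0.43 each, and Psmd14 rose by 0.37. These counts were 3 and 1 with upper quartile factors, 2 and 1 without library 2 of 4 h, 0 and 1 without library 1 of 24 h and 2 and 0 without library 2 of 24 h, and the median of -0.15 was -0.041 with upper quartile factors. The share lower, 26.9%, was near that of all genes. Cholesterol synthesis was mixed at 5 higher (23.8%) and 3 lower (14.3%) of 21, shares near or under those of all genes. The median of 0.04 ran from -0.091 without library 1 of 4 h to 0.19 without library 2 of 4 h. Dhcr7, the last enzyme of the pathway, rose from 0.979 and 1.19 CPM to 7.95 and 8.45 CPM (2.89), and Insig1, which holds back the pathway, fell by 1.20. Without library 2 of either time 1 fell.

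Clock genes differed between the times, which by the labels' hours may also fall at different times of day: clock times are not given in the labels, so time of day and time after injury cannot be told apart. Of 19 tested, 11 fell and 1 rose, at a median of -0.63, with 2 rises without library 1 of 4 h. Nr1d1, the repressor REV-ERB alpha, was at 176 and 238 CPM and then at 53.4 and 70.5 CPM (-1.74 ± 0.18 SE, adjusted p = 2.3e-04). Arntl, the activator BMAL1, was at 21.9 and 37.0 CPM and then at 19.1 and 20.1 CPM, not called at -0.60 ± 0.28 SE (adjusted p = 0.12). Ciart, a repressor of the clock, was at 29.4 and 29.3 CPM and then at 5.76 and 5.30 CPM (-2.40), and Cry2 fell by 0.87. Bhlhe41, another repressor, rose from 25.4 and 21.2 CPM to 45.8 and 58.0 CPM (1.16). Targets of glucocorticoids, the stress and day hormones, fell in 11 of 14 and rose in 1, at a median of -1.15. Klf9 was at 124 and 114 CPM and then at 43.4 and 38.8 CPM (-1.53), Zbtb16 at 385 and 282 CPM and then at 80.9 and 29 CPM, and Per1, Sgk1 and Fkbp5 fell by 1.29, 1.12 and 0.94. Tsc22d3 was not called at 0.05. Ddit4 was the one that rose (0.83), a call lost in 3 of 4 fits that left out a library, and 6 falls were called without the filter on low counts and 7 without library 2 of 24 h.

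The promoters of the clock gene that rose and of the one that fell most are shown because both genes belong to the feedback loop of the clock: Bhlhe41 at chr4:180569356-180569605 (minus strand) and Ciart at chr2:186112247-186112496 (minus strand), 250 bases before the start, RefSeq, GRCr8. Capitals mark CACGTG, the E-box bound by BMAL1 and CLOCK, which reads the same on both strands.
Bhlhe41: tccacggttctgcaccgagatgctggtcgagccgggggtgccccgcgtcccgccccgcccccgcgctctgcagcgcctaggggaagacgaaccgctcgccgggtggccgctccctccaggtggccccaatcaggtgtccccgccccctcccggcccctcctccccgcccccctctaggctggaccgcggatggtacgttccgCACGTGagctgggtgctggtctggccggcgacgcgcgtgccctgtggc
Ciart: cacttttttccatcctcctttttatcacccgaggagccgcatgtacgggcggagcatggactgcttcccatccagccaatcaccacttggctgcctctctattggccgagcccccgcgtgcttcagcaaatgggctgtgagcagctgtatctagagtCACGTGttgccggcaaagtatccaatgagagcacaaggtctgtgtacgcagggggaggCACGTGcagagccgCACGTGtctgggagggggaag
The string occurred once in the Bhlhe41 sequence, starting 48 bases before the start site, and 3 times in that of Ciart, starting 93, 35 and 21 bases before it. Thus the gene that rose and the one that fell most both carry it. It stood in 4 of 16 clock gene windows of 300 bases (25%: Tef, Ciart, Bhlhe40 and Bhlhe41), against 6.65% of all windows.

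Vascular growth factors had a median of -0.44. Of 21 tested 11 fell (52.4%, against 23.8% of all genes) and 3 rose (14.3%, against 23.3%). Beside Pgf, Vegfb was at 186 and 230 CPM and then at 74.1 and 81.7 CPM (-1.42), and Vegfa at 1242 and 1246 CPM and then at 559 and 580 CPM (-1.13). Their receptors Flt1 and Kdr fell by 0.87 and 0.72. Angpt2, which loosens vessels, was at 66.2 and 55.8 CPM and then at 12.9 and 10.9 CPM (-2.35). Figf, the growth factor VEGF-D of lymphatic vessels, rose from 9.25 and 4.42 CPM to 28.8 and 32.2 CPM (2.2), and the apelin receptor Aplnr from 25.4 and 18.8 CPM to 57.5 and 92.6 CPM (1.77), while its ligand Apln fell by 1.20.

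The same interval in the BT2 libraries had fewer calls, 3548 (23.3%), and the 2 courses share no library. Cell cycle genes had a median of 2.72 in vehicle and 1.29 in BT2, DNA replication genes 2.06 and 0.71, fatty acid genes -1.28 and -0.24, and neutrophil markers -2.41 and -0.89. Glucocorticoid targets had medians of -1.15 and -1.12. The difference of the courses, tested as the interaction term in edgeR, passed for 1087 genes (7.14%), 369 (2.43%) positive and 718 (4.72%) negative. That count was 0 without library 2 of vehicle at 24 h, 48 without library 1, 363 without library 2 at 4 h, and 1443 without library 1 at 4 h, so the count depends on library 2 of 4 h and on both 24 h libraries of vehicle. BT2 libraries were not left out. By list, 22 of 28 fatty acid genes and 26 of 32 respiratory chain genes were negative, and 17 of 26 DNA replication genes were positive. The difference passed for 5 of 32 cell cycle genes, 1 of 14 glucocorticoid targets and 0 of 15 neutrophil markers, so the medians of these lists are descriptions. Sod3, extracellular superoxide dismutase, was at 43.3 and 43.5 CPM and then at 20.3 and 20.3 CPM in vehicle, and at 54.9 and 63.5 CPM and then at 75.0 and 79.5 CPM in BT2 (difference -1.48 ± 0.15 SE, adjusted p = 0.012). Enpp2, autotaxin, which makes lysophosphatidic acid, was at 21.2 and 21.3 CPM and then at 4.30 and 4.10 CPM in vehicle, and at 29.5 and 26.4 CPM and then at 38.5 and 30.1 CPM in BT2 (difference -2.63 ± 0.21 SE). Gbp1 (-2.01), Hfe2, which acts in iron sensing (-1.69), Gsn, the actin-severing gelsolin (-1.87), and Ces1d, a carboxylesterase with near-identical relatives (-2.70), were the other smallest p of that sign. Of the positive sign they were Folr2 (1.7), Npl (1.92), Gnpda1 (1.68), Fam105a (2.19), Mcm10 (2.10) and B4galt6 (1.42). Folr2 was at 8.09 and 9.71 CPM and then at 25.1 and 26.7 CPM in BT2, and so rose less there than in vehicle.

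**Figure D4:**
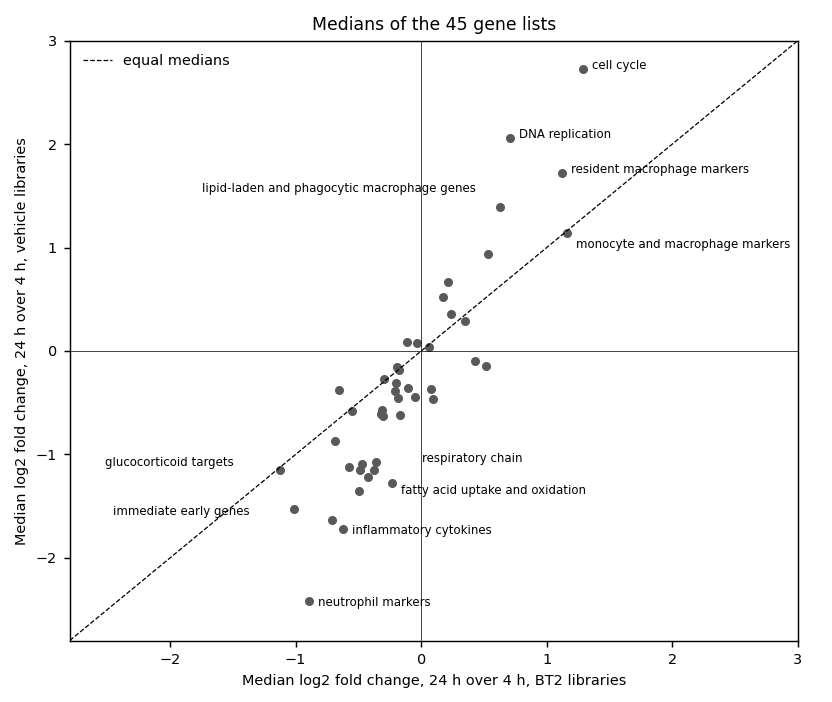
Median log2 fold change of 24 h over 4 h of each of the 45 gene lists in the BT2 libraries (x axis) and in the vehicle libraries (y axis), with the line of equal medians. Cell cycle and DNA replication lie above the line, at 2.72 and 2.06 in vehicle against 1.29 and 0.71 in BT2.

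The vehicle nuclei at 24 h place these transcripts in classes of nuclei. With 1 library there is no test, and intervals cover counting error only. Of 11540 barcodes 11372 were kept, at a median of 2465 UMIs, in 20 clusters, 15 of which could be named from markers. The library had 37 barcodes in common with the BT2 nuclei. Endothelial-like nuclei made up 20.8%, monocyte or macrophage-like nuclei 20% (19.2% to 20.7%, exact Clopper-Pearson), fibroblast-like 14.2%, pericyte-like 11.3%, cardiomyocyte-like 8.18% and neutrophil-like 5.78%. The neutrophil-like share was 3.59% with a 1% limit on mitochondrial UMIs and 8.74% with at least 1000 UMIs a nucleus. A further 11.3% stayed unnamed (6.66% with at least 1000 UMIs) and held 27.8% of all UMIs. The doublet caller marked 1 nucleus and so did not work, and doublets were not removed. Levels are UMI counts scaled to CPM within a class (UMI CPM). Since RNA from the medium can reach all nuclei, the value of the next class is given beside each highest one. Highest and next class are ranks among the 11 named classes, and the unnamed nuclei were left out of the ranking.

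Of the transcripts that rose most, macrophage genes were highest in the monocyte or macrophage-like class. Spp1 was at 1312 UMI CPM there (1281 to 1344) and at 546 in neutrophil-like nuclei, Gpnmb at 1092 and 738, Apobec1 at 616 and 311, and Nrcam at 330 against 138 in Schwann-like nuclei. Of all Spp1 UMIs 36.9% lay in that class, which held 11.4% of all UMIs. Whole lists were less clearly placed. The 19 monocyte and macrophage markers summed to 5497 UMI CPM in neutrophil-like, 3375 in lymphocyte-like, 3374 in monocyte or macrophage-like and 3167 in dendritic-like nuclei. The 22 genes of lipid-laden, phagocytic macrophages summed to 5515 in monocyte or macrophage-like and 3722 in neutrophil-like nuclei. Cell division genes were highest elsewhere. Mki67 was at 199 UMI CPM in fibroblast-like nuclei (189 to 210) and at 172 in dendritic-like nuclei, and Mybl2 at 52.7 and 25.4. The 32 cell cycle genes summed to 1864 UMI CPM in fibroblast-like nuclei, which held 47.4% of their UMIs and 15.2% of all UMIs. Matrix genes were highest there too, with 70.2% of Postn and 66.2% of Col1a1 UMIs. Erbb3 was highest in Schwann-like nuclei, at 95.8 UMI CPM (60.8 to 144), then in macrophage-like nuclei at 38.2. The macrophage-like nuclei held more of its UMIs than any other named class (33.1% of 593). The Schwann-like class held 0.532% of all UMIs. In tissue, the 7 Schwann markers summed to 90.4 and 103 CPM at 4 h and 363 and 414 CPM at 24 h, of which Ncam1, also made by other cells, was 73 and 77 CPM and then 345 and 398 CPM, and Sox10 was not called. Their part in the rise of Erbb3 was not tested. Cd8a was at 136 in lymphocyte-like nuclei and 17.98 in neutrophil-like nuclei. Cd8b was highest in monocyte or macrophage-like nuclei, at 9.949 (7.407 to 13.08), then in neutrophil-like nuclei at 6.744.

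Cardiac transcripts that fell and those that rose lay in the same class. Cardiomyocyte-like nuclei held 74.9% of Myh6, 80.5% of Myh7, 78.6% of Nppa, 77.2% of Nppb and 86% of Xirp1 UMIs, with 15.2% of all UMIs. Nppa was at 125 UMI CPM there and at 10.1 in the next class. Kcnj5, which rose, had 85% of its UMIs there, and Kcnd3, which fell, 83.4%. Neutrophil-like nuclei were highest for Il1r2, at 645 UMI CPM (593 to 700) against 70.8 in the next class, and for S100a8 at 112, Mmp8 at 67.4 and Retnlg at 8.992. Stfa2l2 had 14 UMIs in all, 57.1% of them in Schwann-like nuclei. Of the early genes still counted at 24 h, Cxcl1 was highest in fibroblast-like nuclei (61.7 against 20.6 in pericyte-like nuclei) and Il6 in smooth muscle-like nuclei (28.5, 14.7 to 49.8), then in pericyte-like nuclei (19.4). Vcam1 was at 68.6 in endothelial-like nuclei and 15.02 in the next class. Csf2 had 0 UMIs in the library.

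**Figure D5:**
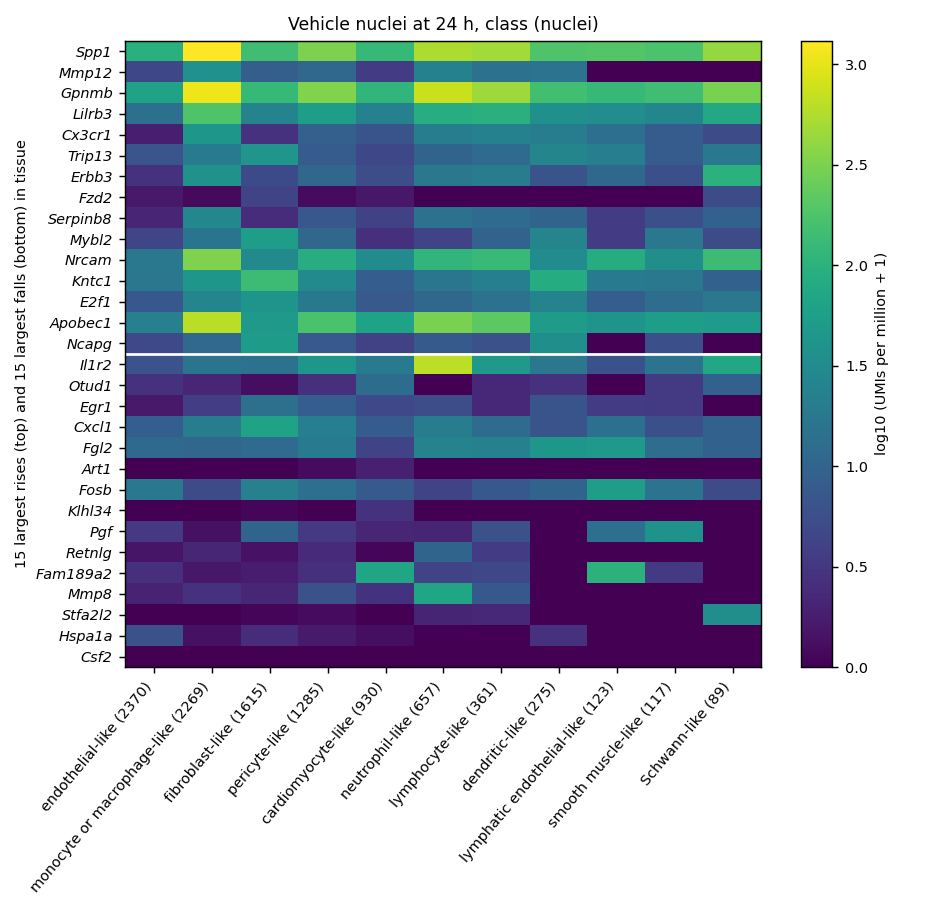
Level, in UMI CPM, of the 15 transcripts with the largest rises (above the white line) and the 15 with the largest falls (below) in 11 classes of vehicle nuclei at 24 h, as log10 of the value plus 1, with the number of nuclei in brackets. Spp1 and Gpnmb are brightest in the monocyte or macrophage-like class, Il1r2 in the neutrophil-like class, and Csf2 has no UMI.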

How the data were processed

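Gene counts of the tissue libraries were deposited by the authors as raw counts. The submitters' processing notes name Trim Galore, STAR with build Rnor_6.0, and featureCounts. Versions, strand setting and annotation were not given in the sources used here, so overlapping and antisense genes cannot be told apart. The nuclear UMI counts come from Cell Ranger 8.0.1, per the file headers. Here, edgeR 4.0.16 (R 4.3.3) fitted the 8 tissue libraries with group means, TMM factors, filterByExpr and a quasi-likelihood test, with Benjamini-Hochberg adjustment over 15216 genes and a threshold of 0.05. The fit was tested on simulated data in which 50 genes each were changed to 2, 4, 0.5 and 0.25 times. Of these 44, 48, 42 and 50 were called, and 13 of 14685 unchanged genes. With so few changed genes, the simulation cannot show how the scaling does where 47.1% of genes are called, as here. The difference of the vehicle and BT2 courses was the interaction term. Nuclei were clustered with scanpy 1.11.5 and named from markers.

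The comparison and the gene lists were chosen with earlier results of these data known. Some members counted in the lists are not reported here by name. Named were genes with a mean of at least 5 CPM and libraries that do not overlap: the 15 highest and the 15 lowest fold changes. Added were up to 2 called members of each list in each direction with the smallest p, 20 genes in any case, and the 6 smallest p in each direction of the interaction. Other genes named as examples were chosen after their values were seen. Alternatives were other scaling factors, DESeq2 1.42.0, no filter, a replicate block, vehicle libraries alone and leaving out each library. The 45 lists held 943 distinct genes matched to the table, of which 909 were tested, and 5 entries had no match. Replicate libraries differed by more than sampling noise (chi-square per degree of freedom 20.6 and 12).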

Additional observations from a re-analysis of the deposited data

Results flagged for a closer look

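The vehicle course differed from the BT2 course in 1087 genes by the interaction term of edgeR's quasi-likelihood test, and 69 of them are named genes. The count was 0 without library 2 of vehicle at 24 h, where 2854 genes had an unadjusted p under 0.05. Values are the log2 fold change in vehicle minus that in BT2. All 27 positive genes were higher at 24 h in vehicle. Most named genes were chosen because they were called in vehicle, and the difference uses the same vehicle libraries. The shared sign is thus partly built in.

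The positive values were those of Gpnmb (1.64), Erbb3 (2.11), Nrcam (2.11), E2f1 (1.83), Apobec1 (1.51), Folr2 (1.7), Mcm5 (1.41), Dhcr7 (1.6), Npl (1.92), Nppa (1.82), Gnpda1 (1.68), Cd68 (0.97), Pdia4 (0.97), Fam105a (2.19), Csf1r (1.03), Pola1 (0.92), Loxl1 (0.76), Mmp14 (1.05), Fbln2 (0.99), Bgn (0.79), Mcm10 (2.1), Grn (0.62), Bhlhe41 (1.11), B4galt6 (1.42), Pgam1 (0.79), Cacna2d1 (0.66) and Psmd14 (0.51).

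All 42 negative genes were lower at 24 h in vehicle, with the same limit. The negative values were those of Cd36 (-0.98), Ccl5 (-1.06), Ulk1 (-0.86), Dcn (-1.38), Sod3 (-1.48), Mmp2 (-1.14), Kcnq1 (-0.7), Insig1 (-0.94), Pdp1 (-0.94), Me1 (-1), Ndufab1 (-0.82), Cpt1b (-1.14), Rxrg (-1.37), Nkg7 (-1.52), Mccc2 (-0.82), Pdk1 (-0.94), Bag3 (-0.75), Gbp1 (-2.01), Cycs (-0.7), Trdn (-1.14), Steap4 (-1.09), Mcee (-1.21), Gabarapl1 (-0.96), F3 (-1.37), Spry4 (-1.15), Nr1d1 (-1.3), Acsl1 (-1.43), Lpl (-1.09), Cfb (-1.75), Hfe2 (-1.69), Pfkm (-1.48), Tcap (-1.38), Gsn (-1.87), Kcnd3 (-1.4), Ces1d (-2.7), Pgam2 (-1.3), Enpp2 (-2.63), Hrc (-1.73), Fabp3 (-1.64), Myh6 (-1.06), Egr3 (-2.3) and Art1 (-2.87).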

How the results depend on the processing

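The number of genes called in vehicle was 7166 with DESeq2 size factors, 7325 with upper quartile factors, 6559 with the DESeq2 test, 7011 without the filter on low counts and 6635 with the vehicle libraries alone. Leaving out each library in turn gave 4629 to 6583 calls, which held 63.9% to 83% of the 7162. For the difference of the courses these fits gave 0 to 1443 genes, and 1819 passed without the filter. Replicate numbers did not pair the libraries (correlations of deviations -0.0412 to 0.109), and a replicate block gave 7011 and 729 calls for the course and the difference. Of 185 named genes 182 were called. The call was lost for 10 under an alternative that kept all vehicle libraries, and for more when a library was left out. No sign changed, but most of these genes were named because they were called in this fit, so that was largely set by the choice. Of the 69 named for the difference of the courses, 69, 56, 34 and 7 calls were lost without library 2 of 24 h, library 1 of 24 h, library 2 of 4 h and library 1 of 4 h. The cause was not tested. The total of calls in a list moved by over 1.5 times in 8 of 45 lists without library 2 of 24 h. With a 1% limit on mitochondrial UMIs the monocyte or macrophage-like share of nuclei was 18.1% and the neutrophil-like share 3.59%.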
